A study of Mus musculus with 6 samples.

Results

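Genes of the Z-disc and of the stretch response were followed by name: Ankrd1, Ankrd2, Csrp3, Fhl1, Fhl2, Xirp1, Xirp2, Flnc, Pdlim5 and Tcap. They were found by the gene symbols of the array's annotation, and 9 of the 10 had a probe, for 22 of the 45281 probes measured. No probe carried the symbol Xirp1 in the annotation used here, and that gene was not analysed. A probe was kept when 2 or more of the 6 arrays detected it, at a detection p-value under 0.05. Of the 22 probes 18 were kept, and the other 4 (of Fhl1, Xirp2, Flnc and Pdlim5) were detected on 0 arrays.

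RNA came from C57BL/6J mice, from heart cell preparations enriched for cardiomyocytes, and was hybridised to 6 one-colour Illumina bead arrays, 2 per group. Mice of the sham group had sham surgery, with no drug or vehicle named. Mice of the TAC_DMSO group had transverse aortic constriction (TAC), a surgical narrowing of the aorta that loads the left ventricle with pressure, and DMSO, the drug's vehicle. Mice of the TAC_BIX group had the same constriction and BIX-01294, an inhibitor of the histone H3 lysine 9 methyltransferases G9a and GLP, for 1 week from pumps under the skin. The groups shared the strain and the enrichment step. Since no vehicle is named for sham, constriction and vehicle cannot be told apart in the comparisons with sham. The sources used here do not give the sex and age of the mice, the mice behind each array, the duration of vehicle treatment, or slides and scan days, so no batch could be examined.

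The Z-disc anchors the actin filaments and the giant protein titin at the ends of each sarcomere, and with the neighbouring I-band of titin it carries proteins that sense stretch. Several of these proteins move between the sarcomere and the nucleus, and some of their genes are known to be transcribed more in the ventricle under pressure load. The listed genes encode ankyrin-repeat proteins that bind titin in the I-band (Ankrd1, Ankrd2), LIM-domain proteins of the Z-disc and of titin's springs (Csrp3, Fhl1, Fhl2), the cap of titin's Z-disc end (Tcap), actin-binding proteins (Xirp1, Xirp2, Flnc) and a PDZ and LIM scaffold protein (Pdlim5).

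All levels are background-corrected, quantile-normalized log2 signals. All differences are log2 differences from 1 limma model over the 6 arrays, with the standard error (SE) of the model, and p-values were adjusted by the Benjamini-Hochberg method over 10538 genes. Each gene is given by its brightest kept probe, called the representing probe, and was called at an adjusted p under 0.05. Each probe was also tested, with p-values adjusted over 19273 kept probes. The p-values measure only the spread between these arrays. Levels of different probes were not compared with each other.

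The array mean signal was between 296 and 439, and 36.7% to 40.9% of the probes were detected per array. Of the 9 cardiomyocyte markers, 8 were measured, all on 6 of 6 arrays, with summed linear signals of 139523 and 151794 in sham, against 125450 and 133685 in TAC_DMSO and 142864 and 140696 in TAC_BIX. Both TAC_DMSO arrays were the lowest. In TAC_DMSO against sham, 7 of the 8 differences were below 0, against 5427 of all 10538 genes. Lower without overlap were 5 of them, against 3051 of all genes. By limma 0 were called, against 0.408% of all genes, and 2 had an unadjusted p under 0.05, against 22.4%. In TAC_BIX against sham 5 of the 8 were below 0 and 3 above. There 1 was called lower, against 412 of all 10538 genes. Other cell types were also present, and in such bulk samples fewer cells of a type and less RNA per cell cannot be told apart. All 7 endothelial markers were measured, and their summed signal ran from 1629 to 2075 in sham, from 2466 to 2802 in TAC_DMSO and from 2528 to 3334 in TAC_BIX, so it was higher on every constriction array than on either sham array. Most of that sum was Egfl7 and Flt1. In TAC_DMSO against sham 6 of the 7 were above 0 and 0 were called, and Tek was lower without overlap. In TAC_BIX against sham 5 were above 0 and 2 below. Of the 7, 2 were called higher there by limma, against 2.74% of all genes, and 5 were higher without overlap, against 29.8%. In the mean of both constriction groups against sham 1 was called higher, against 2.45%. Other kept probes of Pecam1, Flt1 and Egfl7 differed by -0.15, -0.04 and -0.18 in TAC_DMSO, and others of Cdh5 and Egfl7 by 0.64 and 0.51. The 3 atrial markers (Myl4, Myl7 and Sln) went the other way. Their sums were 5167 and 7229 in sham, against 3164 and 6137 in TAC_DMSO and 520 and 478 in TAC_BIX. All 3 were called lower by limma in TAC_BIX against sham, as 412 of all 10538 genes were, and 0 in TAC_DMSO against sham. The erythroid sum, over 4 of 6 markers, was 29250 and 53263 in TAC_DMSO, above the other 4 arrays, which ran from 1832 to 19475. In TAC_DMSO against sham all 4 erythroid markers were above 0, against 48.5% of all genes, with a median of 2.64. Higher without overlap were 3 of them, against 24.9% of all genes. By limma 0 were called, and 3 were higher at an unadjusted p under 0.05, against 10.8% of all genes. The summed signal of macrophages and leukocytes, over 6 of 8, ran from 2332 to 7347. The part of these cells in the results below was not tested.

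Most of the members stood above sham after constriction, and in the mean of both constriction groups against sham Xirp2, Pdlim5 and Ankrd2 rose. In TAC_DMSO against sham, 0 of the 9 measured members were called by limma, where 0.408% of all genes were called and 22.4% had an unadjusted p under 0.05. By that looser count 5 of the 9 members were higher and 0 lower, against 10.8% of all genes higher. For 8 members both TAC_DMSO arrays lay above both sham arrays, as they did for 24.9% of all genes, and the difference was above 0 for the same number of members and for 48.5% of all genes. The members' median difference was 0.57, against -0.01 over all genes.

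In TAC_BIX against sham, 2 of the 9 members were called, Xirp2 and Pdlim5, both higher, against 6.65% of all genes called and 2.74% called higher. At an unadjusted p under 0.05 there were 6 members, all higher, against 26.4% of all genes, or 13.1% higher. The groups did not overlap for 7 members, each higher in TAC_BIX, against 29.8% of all genes higher, and 8 differences were above 0, against 49.6% of all genes. The median difference was 0.55 for the members and -0.00 for all genes. For the mean of both constriction groups against sham, 3 members were called higher (Xirp2, Pdlim5 and Ankrd2), against 4.63% of all genes called and 2.45% called higher, and all 9 differences were above 0, against 48.3% of all genes. There 6 members were higher at an unadjusted p under 0.05, against 25.5% of all genes, or 12.1% higher, and 6 were higher without overlap, against 15.2%. These comparisons share the same 2 sham arrays. Ankrd2 was detected on neither of them and passed the detection filter only through the constriction arrays. In TAC_BIX against TAC_DMSO, 0 members were called by limma, where 0% of all genes were called and 19.8% had an unadjusted p under 0.05; by the latter count 2 members were higher and 1 was lower, against 9.14% of all genes higher. There 5 of the 9 differences were above 0, against 53.4% of all genes, with a median of 0.15, 4 members were higher without overlap, against 28.7%, and 3 were lower without overlap (Ankrd2, Csrp3 and Tcap), against 23%.

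**Figure D1:**
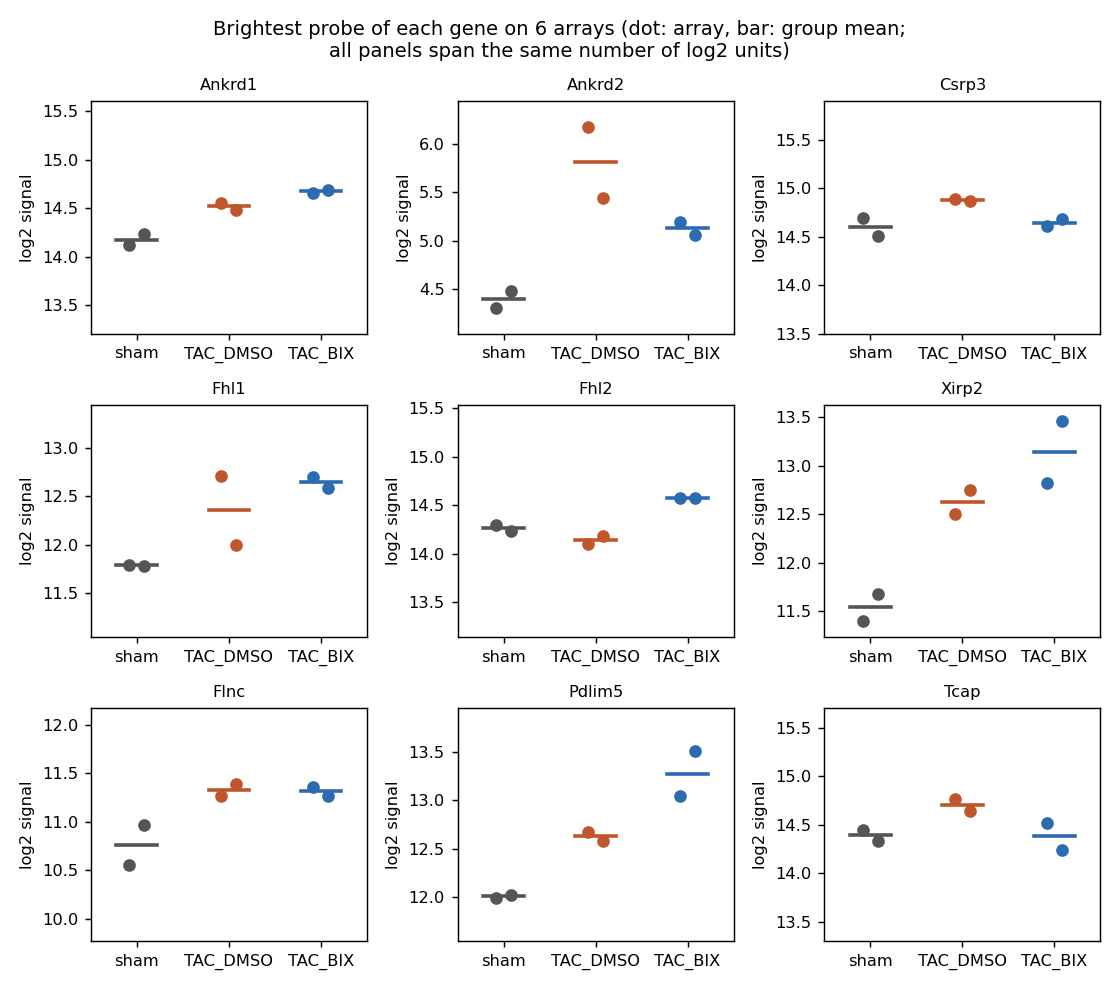
Log2 signal (vertical axes, each spanning the same number of log2 units) of the probe that represents each gene in sham, TAC_DMSO and TAC_BIX; a dot is an array and a bar the mean of the 2 arrays. Xirp2 and Pdlim5 are lowest in sham and highest in TAC_BIX with no overlap between groups, while the TAC_BIX values of Csrp3 and Tcap overlap those of sham.

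Xirp2 encodes Xin actin-binding repeat-containing protein 2, which binds actin and lies at Z-discs and at the intercalated discs that join cardiomyocytes. The gene lies at chr2:67446000-67526620 (GRCm38.p6, RefSeq). Its promoter window is shown because both of its kept probes were called above sham in at least 1 comparison. The window runs from 250 bases before the transcription start to 50 after it, at chr2:67445752-67446051 on the plus strand, and the capitals mark an AP-1 motif (TGANTCA), whose first base lies 107 bases before the start.

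Xirp2 promoter: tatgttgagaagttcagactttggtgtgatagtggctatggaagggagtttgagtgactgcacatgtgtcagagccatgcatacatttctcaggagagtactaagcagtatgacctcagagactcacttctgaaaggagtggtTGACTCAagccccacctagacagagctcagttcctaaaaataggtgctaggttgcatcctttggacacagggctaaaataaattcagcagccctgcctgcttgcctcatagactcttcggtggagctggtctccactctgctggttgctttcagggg

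The AP-1 motif reads the same on both strands, and 7.81% of the 32851 promoter windows of the same length in the RefSeq table held it. The 8 members with a window in that table had 13 windows, and that of Xirp2 alone held it.

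The probe that represents Xirp2 measured 11.40 and 11.68 in sham, against 12.50 and 12.75 in TAC_DMSO and 12.82 and 13.46 in TAC_BIX. Both arrays of each constriction group lay above both sham arrays, and TAC_BIX replicate 2 was the highest. Before any normalization the deposited signals were 2485 and 2206 in sham, against 6946 and 7063 in TAC_DMSO and 7751 and 12120 in TAC_BIX. The groups had the same order there, but the mean signal of all probes was also lowest on the sham arrays. In TAC_BIX the gene rose by 1.60 ± 0.25 (SE) over sham, 3.04-fold, with a limma adjusted p of 0.0223. In TAC_DMSO it differed from sham by 1.09 ± 0.25, 2.13-fold, and did not pass (adjusted p = 0.0775). The mean of the constriction groups rose by 1.35 ± 0.21 over sham, 2.54-fold (adjusted p = 0.0273).

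The second kept probe of Xirp2, annotated to the same RefSeq transcript, measured 5.22 and 5.61 in sham, against 7.43 and 7.73 in TAC_DMSO and 7.04 and 6.85 in TAC_BIX. Its sham values lay close to the lowest signal of any detected probe on the sham arrays, 4.99 and 4.96. It was detected on 6 of 6 arrays, and both constriction groups lay above sham, but with TAC_DMSO the higher of the pair. It rose by 2.16 ± 0.22 in TAC_DMSO over sham, 4.48-fold, with an adjusted p of 0.0172 over all kept probes, and by 1.52 ± 0.22 in TAC_BIX (adjusted p = 0.0135). Between the constriction groups the probes had opposite signs: 0.51 ± 0.25 for the first (adjusted p = 0.296 over probes) and -0.64 ± 0.22 for the second (adjusted p = 0.162). Neither passed, and the difference between the probes was not tested. With the mean of the kept probes in place of the brightest, Xirp2 was called in TAC_DMSO against sham at 1.63 (adjusted p = 0.0454), and its difference between TAC_BIX and TAC_DMSO was -0.063.

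**Figure D2:**
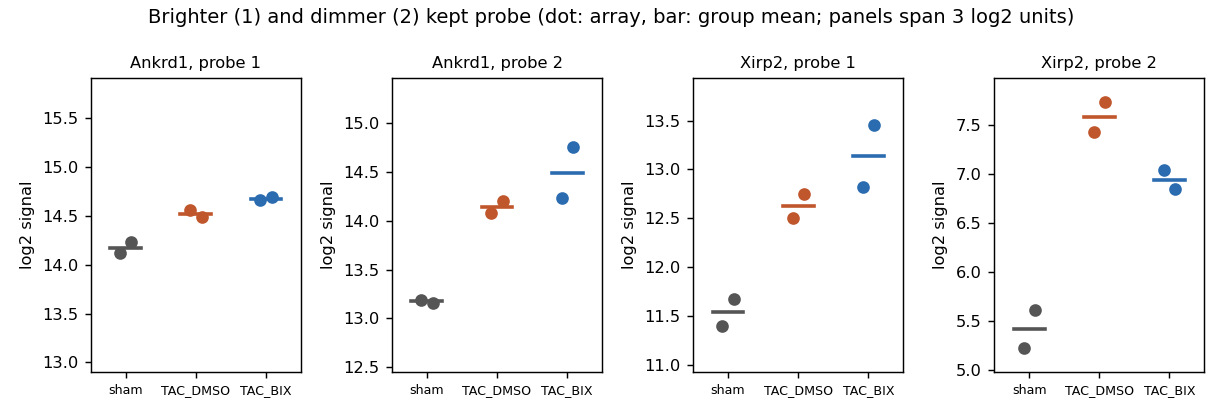
Log2 signal (vertical axes, each spanning 3 log2 units) of the kept probes of Ankrd1 and Xirp2 in sham, TAC_DMSO and TAC_BIX; a dot is an array and a bar the group mean. All 4 probes are higher after constriction, and the second Xirp2 probe is the only one of them with TAC_DMSO above TAC_BIX.

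Pdlim5 encodes ENH, a scaffold protein with a PDZ domain, which binds alpha-actinin at the Z-disc, and LIM domains, which bind protein kinases. Splicing gives forms with and without the LIM domains. The gene lies at chr3:142239585-142395719. The representing probe measured 12.00 and 12.03 in sham, against 12.67 and 12.59 in TAC_DMSO and 13.05 and 13.51 in TAC_BIX, so the 3 groups did not overlap. It rose by 1.27 ± 0.20 in TAC_BIX over sham, 2.40-fold (limma adjusted p = 0.0223), and by 0.94 ± 0.17 in the mean of the constriction groups (1.92-fold, adjusted p = 0.0338). It differed by 0.62 ± 0.20 between TAC_DMSO and sham (adjusted p = 0.138) and by 0.65 ± 0.20 between TAC_BIX and TAC_DMSO (adjusted p = 0.142), and neither passed. With an intensity trend and a robust prior the latter was called (adjusted p = 0.0380).

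The 3 kept Pdlim5 probes are annotated to 3 different RefSeq transcripts. The second measured 9.29 and 9.23 in sham, against 9.68 and 9.60 in TAC_DMSO and 10.10 and 9.74 in TAC_BIX, and the third 6.03 and 6.21, 7.37 and 6.63, and 6.82 and 7.29 in the same order. On every one of the 3 probes each constriction array lay above each sham array. The second and the third probe differed between TAC_BIX and sham by 0.66 ± 0.20 and 0.93 ± 0.28 (adjusted p = 0.0713 and 0.0719 over probes) and did not pass. Between TAC_BIX and TAC_DMSO the third probe overlapped, at 0.06 ± 0.28, with each group's SD (0.52 in TAC_DMSO and 0.33 in TAC_BIX) larger than the difference.

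The calls of Xirp2 and Pdlim5 in TAC_BIX against sham were lost without either sham array or without TAC_BIX replicate 2. Almost all calls of any gene were lost in those fits too, so the loss was not particular to these 2 genes. Those fits leave 1 array in a group, but so does the fit without TAC_BIX replicate 1, where part of the calls remained. The reason for the loss was not tested. With 1 array left out the differences ran from 1.28 to 1.92 for Xirp2 and from 1.04 to 1.495 for Pdlim5, both lowest without TAC_BIX replicate 2. In the mean of the constriction groups against sham the members' calls, and almost all others, were also lost without either sham array or without TAC_BIX replicate 2. There the differences ran from 1.19 to 1.505 for Xirp2 and from 0.83 to 1.06 for Pdlim5. The endothelial sum was higher in both constriction groups than in sham, though not every endothelial marker was, as given above. The part of these cells in the Xirp2 and Pdlim5 values was not tested.

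Ankrd1 encodes cardiac ankyrin repeat protein, which binds titin in the I-band and enters the nucleus, where it acts on transcription, and the gene is a known target of ventricular load. Ankrd2, its relative, encodes a protein studied mostly in skeletal muscle, where stretch raises it. Ankrd1 lies at chr19:36111965-36119844 and Ankrd2 at chr19:42035917-42045111. Their promoter windows are shown because each gene had a probe called above sham. The Ankrd1 window is chr19:36119795-36120094 on the minus strand, printed in the direction of transcription, and the Ankrd2 window chr19:42035777-42036076 on the plus strand. Capitals mark the M-CAT core (CATTCC, the motif of the TEAD factors) in Ankrd1, which appears there as its reverse complement, and the TATA motif (TATAAA) in Ankrd2.

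Ankrd1 promoter: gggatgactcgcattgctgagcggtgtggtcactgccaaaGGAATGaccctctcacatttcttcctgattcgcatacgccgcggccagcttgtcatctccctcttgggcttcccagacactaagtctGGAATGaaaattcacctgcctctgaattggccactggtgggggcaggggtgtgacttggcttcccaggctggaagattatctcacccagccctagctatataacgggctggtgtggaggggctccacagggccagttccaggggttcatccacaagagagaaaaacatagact

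Ankrd2 promoter: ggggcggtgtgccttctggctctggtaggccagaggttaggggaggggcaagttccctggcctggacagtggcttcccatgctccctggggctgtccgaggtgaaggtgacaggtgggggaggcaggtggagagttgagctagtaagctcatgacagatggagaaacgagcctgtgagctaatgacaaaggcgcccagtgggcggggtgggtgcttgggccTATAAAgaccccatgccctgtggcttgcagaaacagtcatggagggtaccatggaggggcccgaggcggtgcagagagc

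The first bases of the M-CAT cores in Ankrd1 lie 210 and 123 bases before the start, and that of the TATA motif in Ankrd2 lies 29 bases before it. Both strands were searched, and matches of different motifs did not overlap. The 8 members with a window had 13 windows, since some had 2. M-CAT cores were found in 14.66% of all 32851 windows and in 3 of the members' 13 (of Ankrd1 and Flnc, whose 2 windows overlap and share the match). The TATA motif was found in 13.62% of all windows and in 4 of the 13. The CArG box, the motif of serum response factor, was found in 1.63% of all windows and in 3 of the 13 (of Fhl1 and Fhl2). A match describes these letters and was not tested as a binding site.

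The representing probe of Ankrd1 measured 14.12 and 14.23 in sham, against 14.56 and 14.48 in TAC_DMSO and 14.66 and 14.69 in TAC_BIX. The 3 groups did not overlap, but all values lay near the highest signal on the arrays, 14.98, where differences can be compressed. The differences from sham were 0.35 ± 0.16 in TAC_DMSO (limma adjusted p = 0.263) and 0.50 ± 0.16 in TAC_BIX (adjusted p = 0.108), and neither passed. The second probe, annotated to the same transcript, measured 13.19 and 13.16 in sham, against 14.08 and 14.21 in TAC_DMSO and 14.23 and 14.75 in TAC_BIX. It rose by 1.32 ± 0.22 in TAC_BIX over sham, 2.49-fold, with an adjusted p of 0.0162 over probes, and differed by 0.97 ± 0.22 in TAC_DMSO (adjusted p = 0.0621). The mean of the constriction groups rose over sham by 1.14 ± 0.19 on this probe (adjusted p = 0.0189). Both probes placed the groups in the same order, and on each of them every constriction array exceeded both sham arrays.

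Ankrd2 had 1 probe, which was below detection on both sham arrays, where it measured 4.31 and 4.48. It was detected on all 4 constriction arrays, at 6.18 and 5.44 in TAC_DMSO and 5.19 and 5.06 in TAC_BIX. It therefore passed the detection filter only through those arrays. The lowest signal of any detected probe lay between 4.80 and 4.99 on each array, so the TAC_BIX values were close to that floor. Against the sham floor, Ankrd2 was at least 1.78-fold higher in TAC_DMSO (adjusted p = 0.0564 over genes and 0.0411 over probes) and at least 1.11-fold higher in TAC_BIX (adjusted p = 0.121 over genes). The mean of the constriction groups was at least 1.41-fold higher than sham and was called (adjusted p = 0.0419). Under the 14 alternative settings that gave Ankrd2 a value, it was called in this last comparison under 4. The sizes and bounds depend on the background correction. With log2 quantile normalization alone the differences were 0.48 in TAC_DMSO and 0.37 in the mean of the constriction groups, and with the authors' processed values 0.30 and 0.23, each smaller than the log2 of the bounds above. TAC_BIX lay below TAC_DMSO without overlap, by -0.68 ± 0.25, which did not pass (adjusted p = 0.197). That difference was -0.32 without TAC_DMSO replicate 1, -1.05 without TAC_DMSO replicate 2 and -0.15 with the authors' processed values. Of the 8 skeletal muscle markers, Myh1, Myh4 and Pvalb were detected on 0 arrays and 3 were measured. These were Tnni2 and Ckm, detected on 6 arrays, and Tnnt3, detected on 3, which overlapped between sham (4.54 and 4.28) and TAC_DMSO (5.14 and 4.53) and measured 4.86 and 4.83 in TAC_BIX. The summed signal of the 3 was 12661 to 14300 in sham, 8283 to 12063 in TAC_DMSO and 12892 to 14875 in TAC_BIX. Most of that sum was Ckm, which is also on the cardiomyocyte list, so the sum does not measure skeletal muscle alone. Tnni2 measured 6.81 and 6.47 in sham, against 6.98 and 6.55 in TAC_DMSO and 6.44 and 5.74 in TAC_BIX. The part of skeletal muscle in the Ankrd2 values was not tested.

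Flnc encodes filamin C, which crosslinks actin at the Z-disc and the intercalated disc, and lies at chr6:29433153-29461889. It measured 10.55 and 10.97 in sham, against 11.27 and 11.39 in TAC_DMSO and 11.36 and 11.27 in TAC_BIX. Every constriction array lay above both sham arrays, and the constriction groups overlapped each other. The differences from sham, 0.57 ± 0.20 in TAC_DMSO and 0.55 ± 0.20 in TAC_BIX, did not pass (limma adjusted p = 0.153 and 0.130). Between the constriction groups the difference was -0.02, with a 95% confidence interval from -0.47 to 0.44.

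Fhl1 encodes a protein of LIM domains that binds the N2B spring of titin, and in mice lacking it the response of the heart to pressure load is blunted. The gene lies at chrX:56731209-56793346. The representing probe measured 11.79 and 11.78 in sham, against 12.71 and 12.00 in TAC_DMSO and 12.70 and 12.59 in TAC_BIX. The second kept probe, annotated to another transcript, measured 11.55 and 11.60, 12.69 and 11.86, and 12.57 and 12.73. On both probes TAC_DMSO replicate 1 was level with the TAC_BIX arrays and replicate 2 lay between them and sham. The first probe differed between TAC_BIX and sham by 0.86 ± 0.24 (1.81-fold, limma adjusted p = 0.0786 over genes), and the second rose by 1.07 ± 0.27 (2.11-fold, adjusted p = 0.0439 over probes). In TAC_DMSO against sham they differed by 0.57 ± 0.24 and 0.70 ± 0.27 and did not pass (adjusted p = 0.221 over genes and 0.174 over probes).

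The summed signal of the 8 fibroblast markers also differed between the TAC_DMSO arrays, at 13366 in replicate 1 and, below both sham arrays, 8819 in replicate 2, against 9908 and 9572 in sham and 12688 and 19390 in TAC_BIX. Most of that sum was Dcn. On TAC_DMSO replicate 2 Lum, Col1a1 and Col1a2 lay above both sham arrays, while Dcn, Pdgfra, Postn and Dpt lay below both. In TAC_DMSO against sham 6 of the 8 differences were above 0, with 0 called by limma, against 0.408% of all genes. Higher without overlap were 3 of them, against 24.9% of all genes. In TAC_BIX against sham 7 were above 0 and 1 was called higher, against 2.74% of all genes. The summed signal of the 7 measured smooth muscle and pericyte markers was 25466 and 19674 in TAC_DMSO, 16601 and 19660 in sham, and 25941 and 32200 in TAC_BIX. Most of this second sum was Des, which is also on the further Z-disc list given below. In TAC_DMSO against sham 6 of the 7 differences were above 0. Myh11 lay below sham without overlap there (5.74 and 5.92 against 6.66 and 6.37). In TAC_BIX against sham all 7 were above 0 and 1 was called higher, against 2.74% of all genes. Of these lists, Cnn1, a smooth muscle marker, was detected on 0 arrays, and the part of these cells in the Fhl1 values was not tested. Without TAC_DMSO replicate 2 the Fhl1 difference between TAC_BIX and TAC_DMSO changed from 0.29 to -0.065.

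Fhl2 encodes another protein of LIM domains, which binds titin and restrains hypertrophic signalling in mice. It lies at chr1:43123071-43198343. Its representing probe measured 14.30 and 14.24 in sham, against 14.10 and 14.19 in TAC_DMSO and 14.58 and 14.57 in TAC_BIX, and its second probe 11.99 and 12.14, 12.13 and 12.35, and 12.73 and 12.60. On both probes the TAC_BIX arrays were the highest. It was the only member whose representing probe was lower in TAC_DMSO than in sham, at -0.12 ± 0.16 (limma adjusted p = 0.690), and on the second probe that difference was 0.18 ± 0.19. Between TAC_BIX and TAC_DMSO the probes differed by 0.43 ± 0.16 and 0.43 ± 0.19 without overlap, which did not pass (adjusted p = 0.200 over genes and 0.254 over probes). With log2 quantile normalization alone and with the authors' processed values this difference was called (0.44 and 0.46, adjusted p = 0.0378 and 0.0269).

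Csrp3 encodes muscle LIM protein, a Z-disc protein whose loss causes dilated cardiomyopathy in mice, and Tcap encodes telethonin, which caps titin and binds muscle LIM protein. They lie at chr7:48830398-48848051 and chr11:98383811-98384953. The representing probe of Csrp3 measured 14.69 and 14.51 in sham, against 14.89 and 14.87 in TAC_DMSO and 14.61 and 14.68 in TAC_BIX, and that of Tcap 14.44 and 14.34, 14.76 and 14.64, and 14.52 and 14.24. For both genes TAC_DMSO was the highest group, and TAC_BIX overlapped sham. Both lay near the highest signal on the arrays. Csrp3 differed by 0.27 ± 0.17 and Tcap by 0.31 ± 0.18 between TAC_DMSO and sham (limma adjusted p = 0.374 and 0.348), and by 0.04 ± 0.17 and -0.01 ± 0.18 between TAC_BIX and sham (adjusted p = 0.903 and 0.983).

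The 95% confidence interval of the difference between TAC_BIX and sham was -0.35 to 0.43 for Csrp3 and -0.43 to 0.41 for Tcap. The other kept probes of Csrp3 differed by 0.30 and 0.23 between TAC_DMSO and sham, and by 0.13 and 0.10 between TAC_BIX and sham. The second Tcap probe measured 13.38 and 13.48 in sham, against 14.07 and 13.82 in TAC_DMSO and 13.94 and 13.79 in TAC_BIX. On it both constriction groups lay above sham, by 0.51 ± 0.19 and 0.44 ± 0.19 (adjusted p = 0.161 and 0.176 over probes). The probes of Tcap thus placed TAC_BIX differently against sham, and that difference was not tested.

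**Figure D3:**
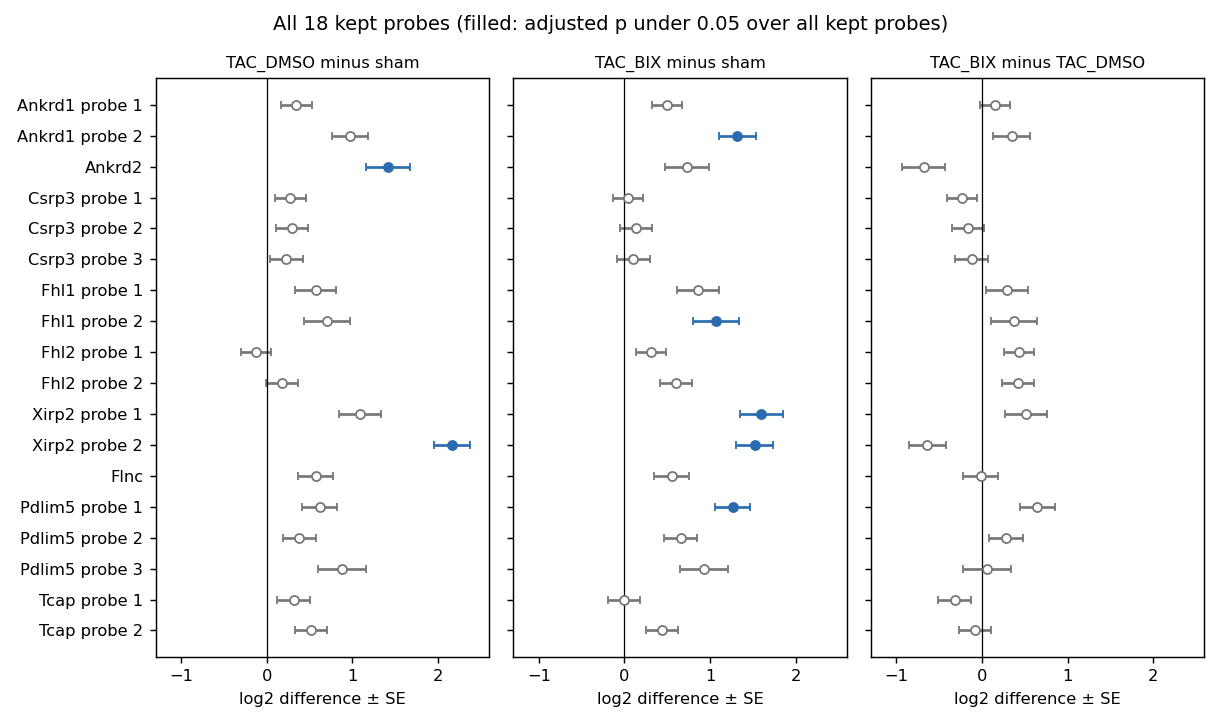
Log2 differences (horizontal axes, with SE as error bars) of all 18 kept probes for TAC_DMSO minus sham, TAC_BIX minus sham and TAC_BIX minus TAC_DMSO; filled points had an adjusted p under 0.05 over all kept probes. There are 2 filled points in the first panel, 5 in the second and 0 in the third.

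By probe, 2 of the 18 were called in TAC_DMSO against sham (Ankrd2 and the second Xirp2 probe), against 1.53% of all kept probes. In sham Ankrd2 was below detection and that Xirp2 probe close to the lowest detected signal. Of the 18 probes 17 lay above 0 in TAC_DMSO against sham. Against sham, 5 were called higher in TAC_BIX, from Ankrd1, Fhl1, Xirp2 and Pdlim5, against 9.1% of all kept probes called and 4.26% called higher. In the mean of the constriction groups against sham 5 were called higher, from Ankrd1, Ankrd2, Xirp2 and Pdlim5, against 6.79% called and 3.55% called higher. In TAC_BIX against TAC_DMSO 0 were called by limma, against 0.00519% of all kept probes, with 4 at an unadjusted p under 0.05. Of these 2 were higher and 2 lower, and 19.7% of all kept probes had such a p. Probes of 1 gene share their target and are not independent.

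What the drug altered in loaded hearts is the question of TAC_BIX against TAC_DMSO, and the members fell on both sides of 0. Pdlim5 (0.65 ± 0.20), Xirp2 (0.51 ± 0.25), Fhl2 (0.43 ± 0.16), Fhl1 (0.29 ± 0.24) and Ankrd1 (0.15 ± 0.16) were above 0. Ankrd2 (-0.68 ± 0.25), Tcap (-0.32 ± 0.18), Csrp3 (-0.23 ± 0.17) and Flnc (-0.02 ± 0.20) were below it. Adjusted p-values ran from 0.142 for Pdlim5 to 0.973 for Flnc, so none of the 9 passed limma at 0.05. The 95% intervals of Pdlim5 (0.18 to 1.11), Fhl2 (0.05 to 0.81) and Ankrd2 (-1.27 to -0.09) left out 0 before adjustment. The atrial marker sum, given above, was 520 and 478 on the TAC_BIX arrays, and the macrophage and leukocyte sum was 7347 and 3646 in TAC_DMSO against 3860 and 4952 in TAC_BIX. While the latter sums overlapped, all 6 measured macrophage and leukocyte markers had a difference below 0, against 4914 of all 10538 genes, with a median of -0.81. Lower without overlap were 3 of them (Aif1, Cd52 and Tyrobp), against 23% of all genes. None of the 6 was called by limma, where 0% of all genes were, and 3 had an unadjusted p under 0.05, against 19.8% of all genes. Their part in these differences was not tested.

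Acta1, Nppa, Nppb and Myh7, transcripts of the loaded ventricle, served as a reference for the constriction. Acta1 and Nppa were called above sham in TAC_DMSO (1.98 and 1.30, limma adjusted p = 0.0268 and 0.0499), against 0.209% of all genes called higher. They were also called in TAC_BIX (2.05 and 1.21, adjusted p = 0.0136 and 0.0223), against 2.74%. Nppb and Myh7 were not called in either. They differed from sham by 0.62 ± 0.20 and 1.39 ± 0.93 in TAC_DMSO and by 0.55 ± 0.20 and 2.45 ± 0.93 in TAC_BIX. Myh7 overlapped sham in TAC_DMSO.

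A further list of 28 genes of the Z-disc and of stretch sensing gave 26 measured genes. Myoz1 did not pass the detection filter and no probe carried the symbol Smpx. Of the 26, 0 were called in TAC_DMSO against sham (against the 0.408% of all genes above). There 15 were above 0, against 48.5% of all genes, with a median of 0.10. In TAC_BIX against sham 3 were called higher and 0 lower (Synpo2l, Filip1 and Myot), against 6.65% of all genes called and 2.74% called higher. There 21 were above 0, against 49.6% of all genes, with a median of 0.29. In the mean of the constriction groups 2 were called higher and 0 lower (Synpo2l and Filip1), against 4.63% of all genes called and 2.45% called higher. In TAC_BIX against TAC_DMSO 0 were called, as for 0% of all genes, and 3 were higher at an unadjusted p under 0.05, against 9.14% of all genes. There 21 were above 0, against 53.4% of all genes, with a median of 0.22.

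Synpo2l encodes a synaptopodin-like actin-binding protein of the Z-disc. It measured 8.23 and 8.11 in sham, against 9.13 and 9.29 in TAC_DMSO and 9.08 and 9.42 in TAC_BIX, so both constriction groups stood above sham and overlapped each other. It rose by 1.08 ± 0.19 in TAC_BIX over sham (2.12-fold, limma adjusted p = 0.0260) and differed by 1.04 ± 0.19 in TAC_DMSO (adjusted p = 0.0599). Filip1, the gene of a filamin-binding protein, was not detected in sham (4.55 and 4.42). It measured 5.04 and 5.28 in TAC_DMSO and 5.39 and 5.45 in TAC_BIX. Like Ankrd2, it passed the detection filter only through the constriction arrays. It was at least 1.36-fold higher in TAC_BIX than in sham (adjusted p = 0.0291). Myot, which encodes the Z-disc protein myotilin, measured 7.65 and 7.68 in sham, against 7.73 and 8.01 in TAC_DMSO and 8.57 and 8.57 in TAC_BIX, and rose by 0.90 ± 0.18 in TAC_BIX over sham (adjusted p = 0.0315). Without sham replicate 1, 2 of all genes were called in that comparison, and without sham replicate 2 or TAC_BIX replicate 2, 0 were.

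Not every gene of that list stood higher. Nexn, which encodes the Z-disc protein nexilin, measured 6.30 and 6.06 in sham, against 5.08 and 5.47 in TAC_DMSO and 5.29 and 5.64 in TAC_BIX. It was below sham on each constriction array, by -0.90 ± 0.22 in TAC_DMSO, which did not pass (limma adjusted p = 0.0862), and a second probe differed by -0.10. Ldb3, the gene of the PDZ-LIM protein cypher, differed by -0.61 ± 0.18 in TAC_DMSO (adjusted p = 0.122), but its other probes differed by -0.06, 0.02, 0.69 and 0.43. Nrap (0.54 ± 0.18) and Pdlim1 (0.53 ± 0.18) had the next smallest p there and did not pass either (adjusted p = 0.150 and 0.154).

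The list's next genes by p in TAC_BIX against sham were Synpo2 (1.24 ± 0.30), Ankrd23 (0.76 ± 0.19) and Nrap (0.65 ± 0.18), with adjusted p = 0.0523, 0.0535 and 0.0747. Ankrd23 encodes another titin-binding ankyrin-repeat protein, of the family of Ankrd1 and Ankrd2. A second probe of Synpo2 differed by -0.17, and the representing probe was detected on 1 of the 2 sham arrays. In TAC_BIX against TAC_DMSO the smallest p-values were those of Myot (0.70 ± 0.18), Bag3 (0.58 ± 0.18), the gene of a co-chaperone of filamin turnover, and Synpo2 (0.88 ± 0.30). None passed (adjusted p = 0.0944, 0.139 and 0.172), and Myoz2 (0.36 ± 0.17), Des (0.45 ± 0.22) and Mlip (0.32 ± 0.17) followed with adjusted p from 0.283 to 0.353. In the mean of the constriction groups Nexn (-0.81 ± 0.19), Nrap (0.60 ± 0.16), Ankrd23 (0.61 ± 0.16) and Myot (0.55 ± 0.15) came next, with adjusted p from 0.0554 to 0.0783.

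**Figure D4:**
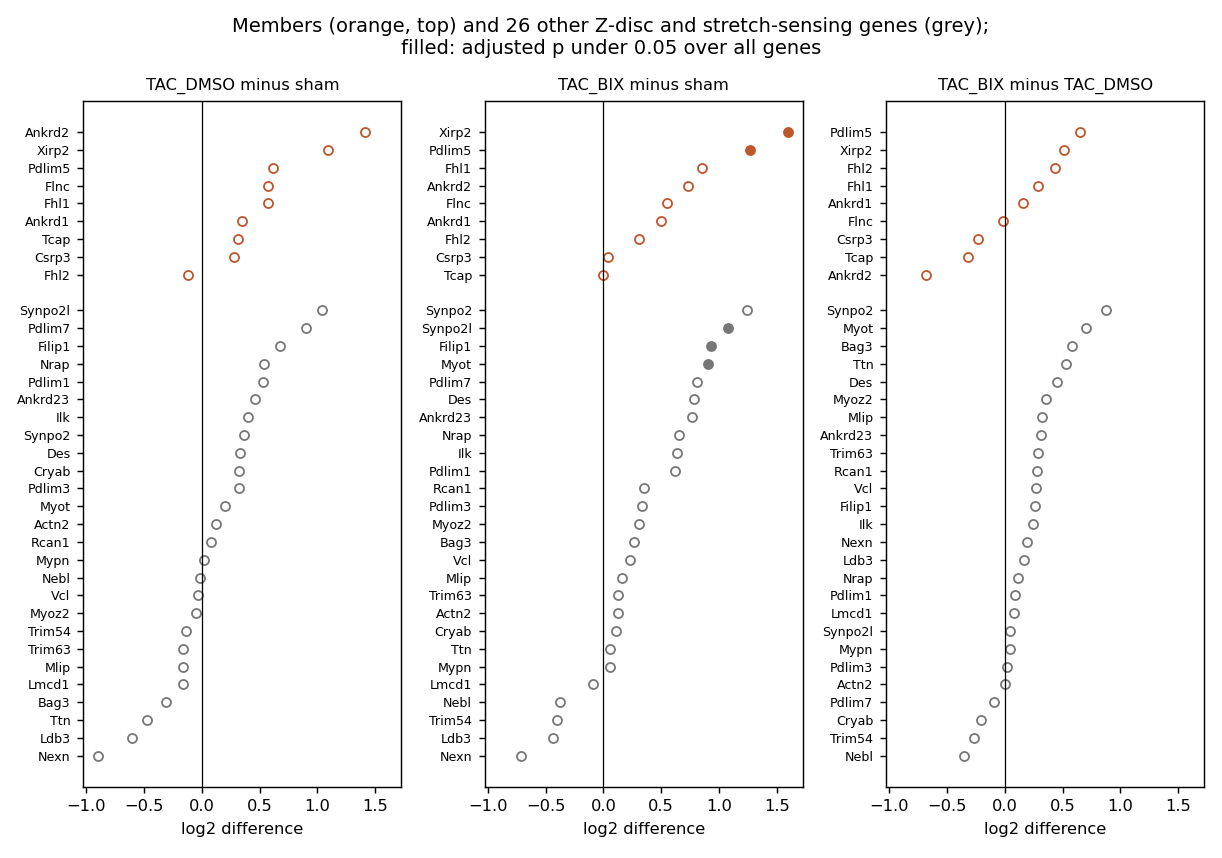
Log2 differences (horizontal axes) of the 9 measured members (orange, top) and the 26 other genes of the Z-disc and of stretch sensing (grey) in 3 comparisons, each block sorted by size; filled points had a limma adjusted p under 0.05 over all genes. The 5 filled points, all in TAC_BIX minus sham, are Xirp2, Pdlim5, Synpo2l, Filip1 and Myot.

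Over the 6 arrays, the genes whose levels followed each member most closely were taken from 3535 candidate genes that were detected on all arrays and had an SD of at least 0.3. The likeness is Pearson's r over the 6 arrays, which share their groups, and the highest values among so many candidates are high by selection. Xirp2 was followed most closely by Klhl41 (0.993), Tom1 (0.992) and Pfkp (0.989), and Pdlim5 by Ttc33 (0.996), Ppp2r3d (0.995) and Drg1 (0.993). For Ankrd1 they were Nrep (0.991), Tbrg1 (0.990) and Mthfd2 (0.989). Nrep, which encodes a small neuronal protein also found in wound fibroblasts, measured 9.55 and 9.82 in sham, against 10.39 and 10.29 in TAC_DMSO and 10.73 and 10.62 in TAC_BIX, in the order of the Ankrd1 groups.

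Fhl1 was followed by Zyx (0.987), Rap1b (0.969) and Mcam (0.966). Zyx, the gene of the focal adhesion protein zyxin, measured 10.53 and 10.62 in sham, against 11.67 and 10.84 in TAC_DMSO and 11.44 and 11.43 in TAC_BIX, with the same split between the TAC_DMSO arrays. Flnc was followed by Eef2k (0.990), Net1 (0.977) and B4galt1 (0.972), and Fhl2 by Phospho2 (0.991), Asb8 (0.988) and Eif4h (0.985). Csrp3 was followed by H4c6 (0.993), Gnpda2 (0.989) and Zscan26 (0.976), and Tcap by Cyhr1 (0.988), Kdm6b (0.983) and Hdhd3 (0.979).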

How the data were processed

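The authors deposited, per the file headers, an average signal intensity for each probe and array, neither background-corrected nor normalized between arrays, with a detection p-value beside it. They also deposited a table of processed log2 values. The submitters' processing notes name the tools GenomeStudio 2011.1, lumi and limma, without their roles.

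Here intensities were corrected, quantile normalized and put on the log2 scale with the neqc function (offset 16; limma 3.58.1, R 4.3.3). Kept probes had detection p-values under 0.05 for 2 or more of 6 arrays, and a gene took its brightest kept probe. Symbols came from the platform annotation: 34885 probes had 1 gene, 18 several and 10378 none, and 34807 matched the GRCm38.p6 gene table. One limma model (lmFit, eBayes) with a mean per group gave all two-sided tests, with 3 residual and 4.62 prior degrees of freedom. A gene below detection in the lower group is given as "at least" a fold over the lowest detected signal there, or its own if higher. Array number limits the precision. The procedure was tested on simulated arrays.

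The members, the further gene lists and the tests were chosen with earlier results of these data known. Named besides the members are called genes of the further Z-disc list (or, below 6 calls, the 6 with the smallest p in each comparison), load-response genes, and for each member detected on all arrays the 3 genes most like it. Alternatives changed the correction, scaling, filter, probe rule, prior, replicate block and arrays used. Promoter windows are RefSeq's (8 of 10 members matched).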

Additional observations from a re-analysis of the deposited data

How the results depend on the processing

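Members called in TAC_DMSO against sham, TAC_BIX against TAC_DMSO, TAC_BIX against sham and the mean of the constriction groups against sham numbered 0, 0, 2 and 3, from 43, 0, 701 and 488 genes. In the same order, log2 quantile normalization without background correction called 0, 1, 3 and 3 members (284, 709, 966 and 655 genes), and an offset of 50 called 1, 0, 4 and 2 (275, 563, 997 and 717 genes). The authors' processed values called 0, 1, 4 and 3 (93, 642, 820 and 433 genes), an intensity trend with a robust prior 2, 1, 4 and 6 (426, 699, 1136 and 904 genes), and the mean of a gene's kept probes 1, 0, 3 and 4 (42, 0, 629 and 417 genes). No detection filter gave 0, 0, 2 and 0 (1, 0, 369 and 213 genes), and detection on all 6 arrays 0, 0, 2 and 2 (134, 359, 839 and 598 genes), with no value for Ankrd2. With median scaling the median difference of all genes was 0.31, 0.23, 0.53 and 0.41, against -0.01, 0.03, -0.00 and -0.02, and it called 5, 0, 6 and 6 members (956, 9, 3771 and 3004 genes, of which 97.5%, 22.2%, 96.6% and 97.8% were higher, against 51.2% in the first comparison, 41.2% in the third and 52.9% in the fourth).

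With the replicate number as a block 0, 0, 2 and 1 members were called (0, 0, 253 and 40 genes). Deviations of arrays with the same number correlated at -0.24, 0.09 and -0.16. With 2 arrays per group each value compares 1 deviation per group, so it cannot show whether the numbers pair the arrays. Leaving out 1 array at a time gave 0 to 1, 0 to 0, 0 to 3 and 0 to 4 members, and 0 to 166, 0 to 6, 0 to 738 and 0 to 598 genes; a lone array was assumed to vary like the other groups.

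The sign changed for Fhl2 in TAC_DMSO against sham (0.14 with median scaling, 0.027 with the mean of probes). In TAC_BIX against TAC_DMSO it changed for Flnc (0.083 with median scaling, and -0.077 to 0.046 with 1 array left out, above 0 without TAC_DMSO replicate 2 or TAC_BIX replicate 2), Xirp2 (-0.063 with the mean of probes) and Fhl1 (-0.065 to 0.64 with 1 array left out, below 0 without TAC_DMSO replicate 2). In TAC_BIX against sham it changed for Tcap (0.17 with median scaling, 0.21 with the mean of probes, and -0.15 to 0.13 with 1 array left out, above 0 without sham replicate 1 or TAC_BIX replicate 2) and Csrp3 (-0.049 to 0.14 with 1 array left out, below 0 without sham replicate 2). No called difference of a member changed sign under these settings, the causes were not tested, and calls by probe were not recomputed. Over 15 alternatives Xirp2 was called in TAC_BIX against sham under 12 and Pdlim5 under 12, with differences of 1.28 to 1.97 and 0.95 to 1.60. Signals near 14.98 and near the detection floor can compress differences, and 2 arrays per group limit every test.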
